A study of Mus musculus with 7 samples.

Results

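Primordial germ cells (PGCs) are the embryonic founders of sperm and eggs, and the 10 genes described here are known for their specification or for early germline identity. They were chosen by name, and all 10 had a row among the 20643 genes of the table. They are *Prdm1*, *Prdm14*, *Tfap2c*, *Dppa2*, *Dppa3*, *Dppa4*, *Dppa5a*, *Ifitm3*, *Prmt5* and *Alpl*. Total RNA was sequenced from EGFP+ prospermatogonia of 15.5 dpc mouse fetuses (days postcoitum; the source name of the samples says 15 dpc). Prospermatogonia are the fetal male germ cells that descend from PGCs. The 7 libraries were 2 from WT (replicates 1 and 2), 2 from H19Ter (replicates 3 and 4) and 3 from H19Ter+neo fetuses (replicates 5, 6 and 7). Both mutant alleles carry a transcription terminator cassette in front of the imprinting control region of *H19/Igf2*, and the H19Ter+neo allele also keeps the Pgkneo selection cassette. All fetuses carried the TgOG2 transgene, in which the *Pou5f1* promoter drives EGFP, and the sort therefore selected cells on the activity of that promoter. H19Ter and H19Ter+neo here name the homozygous fetuses, offspring of parents of the same genotype. The chimeras behind both mutant lines came from 1 targeted 129S1 ES cell line, and H19Ter was made from H19Ter+neo by Hprt-Cre. The TgOG2 mice were of a mixed B6 and CBA background, the strain makeup of the WT fetuses is not stated, and strain and genotype cannot be told apart. The paper's methods allow for testes of several fetuses in the same digest. Whether each library pooled fetuses is not stated, and the fetuses behind each library are not named. The p-values below measure the spread between these libraries, part of which may be technical.

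Depth was 45.1 and 45.9 M read pairs counted to genes in WT, 51.2 and 37.5 M in H19Ter and 84.1 to 87.3 M in H19Ter+neo. Markers of male fetal germ cells were abundant. Their summed level was between 4070 and 4850 CPM (read pairs per M of the scaled library) in the 7 libraries. Single genes of the list moved both ways. Of 13 with a row, 2 were higher and 5 lower in H19Ter than in WT, and 5 higher and 4 lower in H19Ter+neo. Mean *Dnmt3l* was 39.4 CPM in WT, 90.1 CPM in H19Ter and 91.1 CPM in H19Ter+neo. Mean *Pou5f1*, whose promoter drives the EGFP of the sort, was 265, 249 and 168 CPM. *Dazl* and *Mael* had the highest mean log2 levels of that list, which also holds *Dppa3*, and *Ddx4* was above *Mael* in both WT libraries. Summed markers of Sertoli cells (31.4 to 44.9 CPM, highest in mean log2 level *Clu* and *Gata4*), Leydig cells (29.6 to 59 CPM, *Fdx1* and *Star*) and endothelium (31.3 to 35.4 CPM, *Cdh5* and *Tek*) were low. The endothelial sum hides changes in both directions. Of its 8 genes with a row, 2 were higher and 1 lower in H19Ter than in WT. In H19Ter+neo 5 were higher and 1 lower. Over all genes, 25.1% and 54.4% passed the test in these 2 comparisons. The lower gene in both was *Plvap*, with 11.9 and 11.4 CPM in WT and 4.93 to 6.73 CPM in the mutants. Its log2 difference was −0.87 in H19Ter (limma, adjusted p = 0.00403) and −1.02 in H19Ter+neo (adjusted p = 0.000199). Macrophage markers (3 of 9 with a row, among them *Cd68* and *Cx3cr1*) summed to at most 7.09 CPM, and *Alas2*, the single erythroid marker of 7 with a row, reached 5.82 CPM. The interstitial and peritubular sum was 418 to 432 CPM in WT, 369 to 437 CPM in H19Ter and 257 to 312 CPM in H19Ter+neo, where 3 of its 14 genes were lower and 2 higher than in WT. Its part in the results below was not tested. Most of that sum, and of its fall, was *Ptch1*, a hedgehog receptor, with means of 355, 295 and 215 CPM in WT, H19Ter and H19Ter+neo. *Pdgfra*, second by mean log2 level, was at 14.1 to 22.2 CPM in all libraries. *Pdgfrb* went the other way, from a mean of 3.2 CPM in WT to 12.9 CPM in H19Ter and 10.7 CPM in H19Ter+neo. *Col1a1* lay above *Pdgfra* in the WT and H19Ter libraries and reached 33.7 CPM in H19Ter replicate 3.

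PGCs arise from epiblast cells that receive BMP and WNT signals. PRDM1 (BLIMP1), PRDM14 and TFAP2C then act together, PRDM1 as a repressor of the somatic program, PRDM14 as a factor of pluripotency and epigenetic resetting, and TFAP2C as a DNA-binding activator and repressor. The DPPA genes mark pluripotent and germline cells, IFITM3 (fragilis) and tissue-nonspecific alkaline phosphatase (the product of *Alpl*) are classical surface markers of PGCs, and PRMT5 is an arginine methyltransferase that works in germ cells with PRDM1.

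At 15.5 dpc all 10 genes were transcribed in every library, with between 346 and 35555 read pairs per gene and library. In H19Ter 5 genes were lower than in WT (*Prdm1*, *Prdm14*, *Dppa2*, *Dppa5a* and *Ifitm3*), *Alpl* was higher, and 4 did not pass the test (limma, Benjamini-Hochberg adjusted p under 0.05 over all 20643 genes). In H19Ter+neo 7 genes were lower than in WT, which are those 5, *Tfap2c* and *Alpl*, and 3 did not pass. Both comparisons use the same WT libraries and are thus not independent. Between the mutants, *Prdm1*, *Prdm14*, *Dppa2* and *Alpl* were lower in H19Ter+neo, and 6 did not pass. None of the 10 was called higher in H19Ter+neo than in WT or in H19Ter, though the estimates for *Dppa3*, *Dppa5a* and *Ifitm3* lay above those of H19Ter.

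These counts stand against a large background of calls. Among all genes, 25.1% were called in H19Ter against WT, 11.0% lower and 14.1% higher, beside 6 of the 10 genes. The background was 54.4% in H19Ter+neo against WT, 26.7% lower and 27.7% higher, beside 7 of 10. Between the mutants it was 27.7%, 15.2% lower and 12.5% higher, beside 4 of 10. The share of the 10 genes called lower was thus above the background of lower calls in each comparison, while the share called in either direction in H19Ter+neo was nearer to its background. The median log2 difference of the 10 genes was −0.47, −0.66 and −0.19 in the 3 comparisons, against −0.01, 0.01 and 0.01 for all genes. The set was chosen with earlier results of these data known, so the counts describe it and do not test it.

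**Figure D1:**
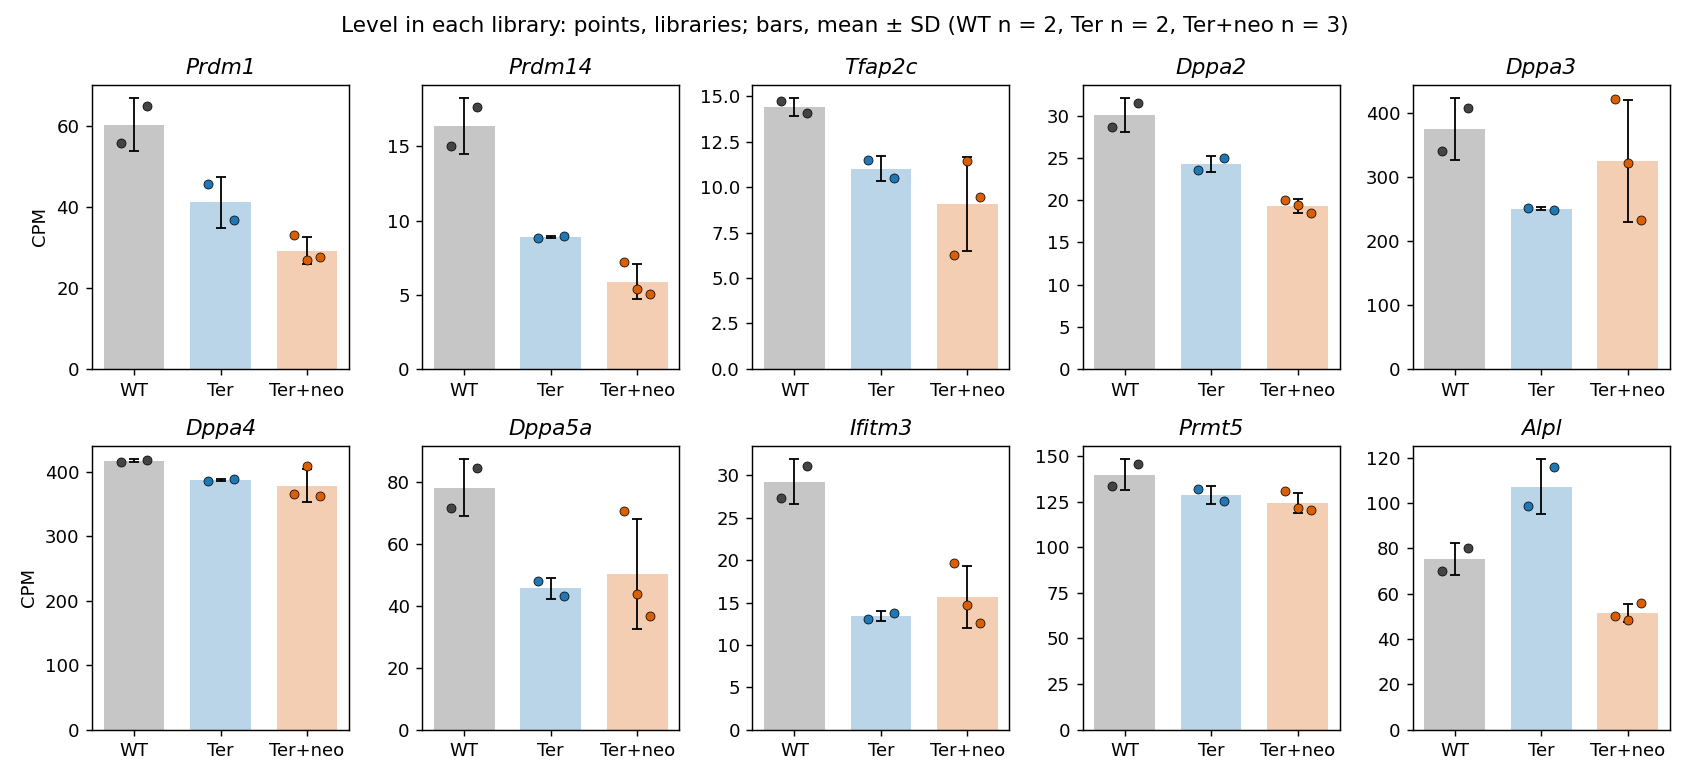
Level of each gene in CPM (vertical axes, linear from 0) in WT, H19Ter (Ter) and H19Ter+neo (Ter+neo); points are libraries, and bars with lines are the mean ± SD (n = 2, 2 and 3). *Prdm1*, *Prdm14* and *Dppa2* descend from WT through Ter to Ter+neo without overlap, *Alpl* is highest in Ter, and *Dppa3*, *Dppa5a*, *Ifitm3* and *Tfap2c* spread widely among the 3 Ter+neo libraries.

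*Prdm14* (chromosome 1, 13113457 to 13127163, minus strand, GRCm38) had the largest fall of the 10 genes in H19Ter+neo. Its level was 15 and 17.7 CPM in WT, 8.83 and 8.93 CPM in H19Ter and 7.24, 5.37 and 5.05 CPM in H19Ter+neo. No library of one genotype reached into the range of another. How many of all genes separate in this way was not counted, here or below, so separation is a description only. The log2 difference was −0.87 ± 0.17 (SE, adjusted p = 0.0066) in H19Ter and −1.48 ± 0.16 (adjusted p = 4.99e-05) in H19Ter+neo against WT, a 2.79-fold lower level in the latter. H19Ter+neo lay below H19Ter by a further −0.61 ± 0.16 (adjusted p = 0.017). The call in H19Ter was lost without WT replicate 2 (−0.76, adjusted p = 0.073), and that between the mutants without H19Ter replicate 3 or 4 (adjusted p = 0.0913 and 0.0894) or with no mean-variance trend (adjusted p = 0.0593).

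*Prdm1* (chromosome 10, 44437177 to 44528501, minus strand) gave the same order. The libraries had 55.9 and 65 CPM in WT, 45.6 and 36.8 CPM in H19Ter and 33.1, 27.1 and 27.7 CPM in H19Ter+neo. Again the 3 genotypes did not overlap. *Prdm1* was 1.47-fold lower in H19Ter (log2 −0.56 ± 0.13, adjusted p = 0.0138) and 2.07-fold lower in H19Ter+neo (−1.05 ± 0.12, adjusted p = 7.44e-05) than in WT. The mutants differed by −0.49 ± 0.12 (adjusted p = 0.0133). Its fall in H19Ter did not pass without WT replicate 2 (−0.45, adjusted p = 0.131) or H19Ter replicate 4 (−0.40, adjusted p = 0.115), and the difference between the mutants did not pass without H19Ter replicate 3 (−0.33, adjusted p = 0.15). Neither passed with no mean-variance trend (adjusted p = 0.0718 and 0.0682). The log2 ratio of *Prdm14* to *Prdm1* was −1.90 and −1.88 in WT, between −2.37 and −2.04 in H19Ter and between −2.45 and −2.19 in H19Ter+neo, so that in each mutant library *Prdm14* was reduced more than *Prdm1*.

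*Tfap2c* (chromosome 2, 172549593 to 172558622, plus strand) was the lowest of the 3 factors per length in WT and H19Ter, and had 14.7 and 14.1 CPM in WT. It had 11.5 and 10.5 CPM in H19Ter and 6.28, 11.4 and 9.48 CPM in H19Ter+neo. All mutant libraries were below both WT libraries, and the mutants overlapped, with replicate 5 the lowest and replicate 6 within the H19Ter range. The difference from WT passed the test in H19Ter+neo (−0.71 ± 0.20, adjusted p = 0.0131) and not in H19Ter (−0.39 ± 0.22, adjusted p = 0.222). The former did not pass without WT replicate 1 (−0.67, adjusted p = 0.0752) or WT replicate 2 (−0.74, adjusted p = 0.0636), and the latter passed without H19Ter+neo replicate 5 (adjusted p = 0.0386), a library that enters it through the shared estimate of spread alone, or with H19Ter and WT fitted alone (adjusted p = 0.0182). With no mean-variance trend the fall in H19Ter+neo did not pass (adjusted p = 0.0564). The mutants differed by −0.32 (95% interval −0.77 to 0.13, adjusted p = 0.262).

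*Dppa2* and *Dppa4* encode a pair of SAP-domain chromatin proteins that act as a complex, and the genes lie beside each other on the plus strand of chromosome 16 (48303908 to 48319723 and 48283733 to 48294237) with 9671 bases between them. *Dppa2* had 28.7 and 31.5 CPM in WT, 23.6 and 25 CPM in H19Ter and 20.1, 19.4 and 18.5 CPM in H19Ter+neo. Its 3 genotypes were separate, with little spread within each. The falls were −0.31 ± 0.09 (adjusted p = 0.0372) and −0.64 ± 0.09 (adjusted p = 0.000179), and the mutants differed by −0.33 ± 0.09 (adjusted p = 0.0167). The first of these was lost without WT replicate 1 (adjusted p = 0.0546), WT replicate 2 (adjusted p = 0.237), H19Ter replicate 3 (adjusted p = 0.172) or replicate 4 (adjusted p = 0.104), and with equal totals, voom, no mean-variance trend or the GC and length trend removed (adjusted p from 0.0598 to 0.0965), and the last without H19Ter replicate 3 (adjusted p = 0.0696) or 4 (adjusted p = 0.12).

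*Dppa4* was in contrast nearly level. It had 415 and 419 CPM in WT, 385 and 388 CPM in H19Ter and 365, 408 and 362 CPM in H19Ter+neo. Every mutant library was below both WT libraries, by little. The log2 differences were −0.11 (95% interval −0.26 to 0.04, adjusted p = 0.264) and −0.14 (−0.28 to −0.005, adjusted p = 0.0744), and the latter passed without H19Ter+neo replicate 6 (−0.20, adjusted p = 0.0158). The log2 ratio of *Dppa2* to *Dppa4* was −3.79 ± 0.09 (SD, n = 2) in WT, −3.99 ± 0.05 (n = 2) in H19Ter and −4.29 ± 0.10 (n = 3) in H19Ter+neo, and did not overlap between genotypes.

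A processed pseudogene of *Dppa4* differed between the genotypes while *Dppa4* itself did not pass the test. *Gm14058* (chromosome 2, 122214620 to 122215354, minus strand) was identical to *Dppa4* at 529 of 532 aligned bases, with 3 mismatches and no gap. The alignment covers a part of each, as the pseudogene has 735 bases and the *Dppa4* transcript 1479. A stretch of 90 bases from the coding sequence of *Dppa4*, starting at its base 360, is shown with the same stretch of the pseudogene. It shows how little separates the aligned parts of the 2 genes for paired reads of 50 bases. The capital marks the single base at which they differ (GENCODE vM21, GRCm38).
Dppa4: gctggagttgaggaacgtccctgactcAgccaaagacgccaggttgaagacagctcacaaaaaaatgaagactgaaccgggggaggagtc
Gm14058: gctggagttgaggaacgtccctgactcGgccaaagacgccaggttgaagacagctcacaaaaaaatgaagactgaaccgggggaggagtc
*Gm14058* had 13 read pairs in each WT library, 234 and 131 in H19Ter and 553, 911 and 635 in H19Ter+neo. The genotypes were fully separate, at 0.29 and 0.292 CPM, 4.4 and 3.38 CPM, and 6.78, 10.5 and 7.36 CPM. It was higher by 3.59 (adjusted p = 1.98e-05) in H19Ter and by 4.64 (adjusted p = 8.98e-07) in H19Ter+neo than in WT on the log2 scale, and by 1.06 (adjusted p = 0.00611) in the latter than in the former. It was chosen for description after its values were seen. Strain and genotype cannot be told apart in these libraries, and the part of strain in this difference was not tested. Its read pairs came to 0.0698% or 0.0699% of those of *Dppa4* in WT and to between 0.871% and 2.56% in the mutants. Of the 50-base windows along *Dppa4*, 31.3% also occur in *Gm14058* or a second pseudogene. Of those along *Dppa2*, 29.1% also occur in 7 pseudogenes, none of which had a row. STAR counted only uniquely mapping pairs, so the split of reads between *Dppa4* or *Dppa2* and their copies is uncertain. The part of this shared sequence in the ratio of *Dppa2* to *Dppa4* was not tested.

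*Dppa3* (Stella, PGC7), which protects the genome of the egg and early embryo from DNA methylation changes by holding back UHRF1, was the most abundant of the 10 genes per length. The gene lies on chromosome 6 (122626410 to 122630272, plus strand). Its levels were 340 and 408 CPM in WT, 252 and 249 CPM in H19Ter and 422, 321 and 232 CPM in H19Ter+neo. The H19Ter libraries were below WT, while the H19Ter+neo libraries ran from below H19Ter to above WT. The log2 difference from WT was −0.57 (95% interval −1.03 to −0.12, adjusted p = 0.0652) in H19Ter and −0.24 (−0.66 to 0.18, adjusted p = 0.301) in H19Ter+neo. The call changed with the libraries in the fit. In H19Ter it passed when H19Ter and WT were fitted alone (adjusted p = 5.51e-05), and without replicate 5 (adjusted p = 0.00679) or replicate 7 (adjusted p = 0.00564) of H19Ter+neo. It passed in H19Ter+neo without replicate 5 (−0.45, adjusted p = 0.0107), and between the mutants, at 0.33 (adjusted p = 0.21), without replicate 7 (0.56, adjusted p = 0.00675). The X-linked copy *Dppa3-ps* lies at 37625647 to 37626097 of chromosome X, with 443 of 451 bases identical. Its own read pairs were counted apart from those of *Dppa3*. They came to 4.39% and 4.92% of the *Dppa3* number in WT, 4.76% and 4.25% in H19Ter and 6.20%, 5.64% and 5.79% in H19Ter+neo.

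*Dppa5a* (Esg1; chromosome 9, 78367052 to 78368177, minus strand) encodes an RNA-binding protein of pluripotent and germ cells. It had 71.7 and 84.7 CPM in WT, 48.1 and 43.1 CPM in H19Ter and 70.5, 43.7 and 36.7 CPM in H19Ter+neo. All mutant libraries were below WT, but H19Ter+neo replicate 5 came close to WT replicate 1. *Dppa5a* fell by 0.77 ± 0.23 (adjusted p = 0.0357) and 0.69 ± 0.21 (adjusted p = 0.0191) on the log2 scale in the 2 mutants, and the mutants differed by 0.09 (95% interval −0.38 to 0.56, adjusted p = 0.791). The fall in H19Ter did not pass without WT replicate 1 (adjusted p = 0.071), WT replicate 2 (0.218), H19Ter replicate 3 (0.0955) or replicate 4 (0.168), and that in H19Ter+neo not without WT replicate 2 (0.148) or its own replicate 6 (0.0544). With no mean-variance trend neither fall passed (adjusted p = 0.133 and 0.085), and with voom that in H19Ter did not (adjusted p = 0.0699). Of its 50-base windows, 38.6% occur in 9 other genes, most of them pseudogenes.

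*Ifitm3* encodes an interferon-inducible membrane protein that marks PGC precursors. The gene lies on chromosome 7 (141009586 to 141010770, minus strand), 1.56 Mb from *H19*. Its sequence around the start is shown as the promoter of the gene that fell most of the 10 in H19Ter, from 250 bases before to 50 after the start (RefSeq, GRCm38.p6, chr7:141010695-141010994, minus strand). Capitals mark CpG dinucleotides, the target of DNA methylation.
Ifitm3: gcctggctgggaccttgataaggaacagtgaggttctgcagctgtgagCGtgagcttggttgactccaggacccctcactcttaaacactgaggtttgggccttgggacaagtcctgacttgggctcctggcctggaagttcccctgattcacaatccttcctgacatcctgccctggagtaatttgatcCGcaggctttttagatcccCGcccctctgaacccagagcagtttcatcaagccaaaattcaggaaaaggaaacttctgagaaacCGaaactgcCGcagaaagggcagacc
*Ifitm3* had 27.4 and 31.1 CPM in WT, 13 and 13.8 CPM in H19Ter and 19.6, 14.7 and 12.5 CPM in H19Ter+neo. Every mutant library was well below WT, and the mutants overlapped. The fall was 2.17-fold in H19Ter (−1.12 ± 0.18, adjusted p = 0.00246) and 1.90-fold in H19Ter+neo (−0.93 ± 0.16, adjusted p = 0.000811), and both calls held under each of the 17 alternatives tried. The mutants differed by 0.19 (95% interval −0.16 to 0.55, adjusted p = 0.395).

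*Ifitm1* and *Ifitm2* lie in the same cluster. *Ifitm1* had 98.7 and 116 CPM in WT, 73.3 and 61.7 CPM in H19Ter and 99.6, 97 and 64.4 CPM in H19Ter+neo. Like *Ifitm3* it was lower in H19Ter (−0.67, adjusted p = 0.0253), and it did not pass in H19Ter+neo (−0.32, adjusted p = 0.123). *Ifitm2* had 61.3 and 58.9 CPM in WT, 39.5 and 41.3 CPM in H19Ter and 61.6, 73.2 and 53.5 CPM in H19Ter+neo. It fell in H19Ter (−0.57, adjusted p = 0.00908), did not pass in H19Ter+neo (0.05, adjusted p = 0.72), and was higher in the latter than in the former (0.62, adjusted p = 0.003). The log2 ratio of *Ifitm3* to *Ifitm1* was −1.87 ± 0.03 (SD, n = 2) in WT, −2.33 ± 0.23 (n = 2) in H19Ter and −2.48 ± 0.22 (n = 3) in H19Ter+neo. That of *Ifitm3* to *Ifitm2* was −1.16 and −0.92 in WT, −1.60 and −1.58 in H19Ter and between −2.32 and −1.65 in H19Ter+neo. *Ifitm3* shares 10% of its 50-base windows with *Ifitm1*, *Ifitm2* and 3 other genes. Of the family and *Bst2*, a related restriction factor, 5 of 7 genes had a row, of which 2 were lower in H19Ter, and 1 was higher (*Bst2*, 0.54, adjusted p = 0.00549) and 1 lower (*Ifitm7*, −1.64, adjusted p = 0.000739) in H19Ter+neo against WT. Between the mutants 2 were higher and none lower. Over all genes, 25.1% were called in H19Ter against WT, 54.4% in H19Ter+neo against WT and 27.7% between the mutants.

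*Alpl* was the single gene of the 10 that was called in opposite directions. Its product is the tissue-nonspecific alkaline phosphatase by which PGCs have been stained for decades. The gene lies on chromosome 4 (137741733 to 137796384, minus strand) and RefSeq gives it 2 starts, whose surroundings are shown because they differ in CpG content.
Alpl, upstream start, chr4:137796335-137796634, minus strand: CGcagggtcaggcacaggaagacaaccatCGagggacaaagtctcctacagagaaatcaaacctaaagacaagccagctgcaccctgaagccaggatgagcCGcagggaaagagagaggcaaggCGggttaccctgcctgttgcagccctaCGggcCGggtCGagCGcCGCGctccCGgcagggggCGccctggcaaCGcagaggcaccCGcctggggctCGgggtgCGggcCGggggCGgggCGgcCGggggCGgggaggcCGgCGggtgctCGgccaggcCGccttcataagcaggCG
Alpl, second start, chr4:137766426-137766725, minus strand: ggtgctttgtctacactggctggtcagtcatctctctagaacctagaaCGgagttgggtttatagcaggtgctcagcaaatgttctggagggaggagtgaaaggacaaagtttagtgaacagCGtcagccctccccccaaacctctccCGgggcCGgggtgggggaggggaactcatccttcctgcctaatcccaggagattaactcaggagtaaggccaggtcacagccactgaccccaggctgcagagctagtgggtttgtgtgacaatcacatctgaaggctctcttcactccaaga
In WT *Alpl* had 70.2 and 80.2 CPM. H19Ter had 98.6 and 116 CPM, above WT, and H19Ter+neo had 50.3, 48.3 and 55.7 CPM, below WT. *Alpl* was 1.42-fold higher than WT in H19Ter (0.51 ± 0.10, adjusted p = 0.0076), 1.46-fold lower in H19Ter+neo (−0.55 ± 0.09, adjusted p = 0.000823) and 2.08-fold lower in the latter than in the former (−1.06 ± 0.09, adjusted p = 9.65e-05). The rise did not pass without WT replicate 1 (0.41, adjusted p = 0.0516) or H19Ter replicate 4 (0.39, adjusted p = 0.0746), or with no mean-variance trend in the fit (adjusted p = 0.0536), and the other comparisons passed under every alternative tried. The other 4 alkaline phosphatase genes looked for had no row. Counts per gene do not tell which *Alpl* start was used.

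*Prmt5* (chromosome 14, 54507187 to 54517525, minus strand) varied little. Its level was 134 and 146 CPM in WT, 132 and 125 CPM in H19Ter and 131, 121 and 121 CPM in H19Ter+neo. All mutant libraries were slightly below WT. The log2 differences were −0.12 (95% interval −0.28 to 0.04, adjusted p = 0.259) and −0.17 (−0.32 to −0.02, adjusted p = 0.0507). The second lay at the threshold, and passed without WT replicate 1 (−0.23, adjusted p = 0.0493) or H19Ter+neo replicate 5 (−0.21, adjusted p = 0.0242), with the filter on low values (adjusted p = 0.0478) or after thinning to the smallest library (adjusted p = 0.0418).

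**Figure D2:**
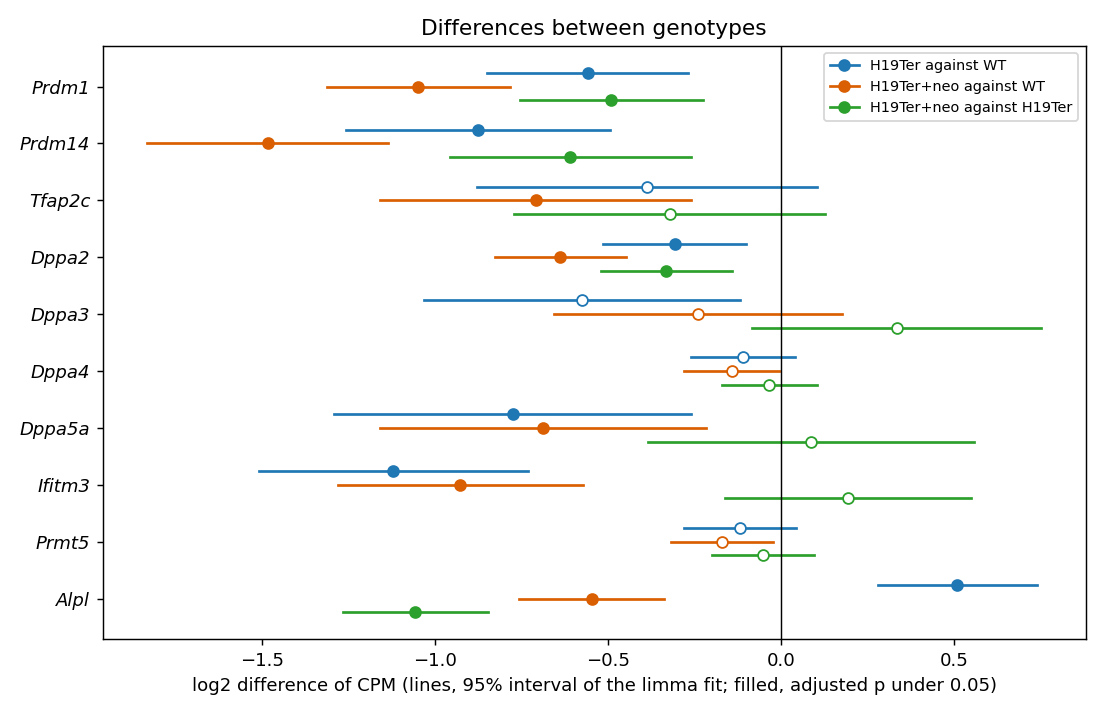
Log2 difference of each gene in the 3 comparisons (horizontal axis); lines are the 95% interval of the limma fit, filled points passed an adjusted p of 0.05 and open points did not. *Alpl* is the one gene with filled points on both sides of 0, and *Dppa4* and *Prmt5* stay within 0.2 of it.

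Spread within H19Ter+neo was wide for 4 of the genes. The highest library was 1.92 times the lowest for *Dppa5a*, 1.82 times for *Dppa3* and *Tfap2c* and 1.57 times for *Ifitm3*. Replicate 5 was the highest of the 3 for *Dppa3*, *Dppa5a* and *Ifitm3* and the lowest for *Tfap2c*. Summed Leydig cell markers (7 of 8 with a row) were also highest in replicate 5, at 59 CPM beside 32.5 and 29.6 CPM in replicates 6 and 7. Much of this sum was *Fdx1* (26.9, 24.4 and 23.4 CPM), while *Cyp17a1* had 10.4, 1.4 and 0.649 CPM. Sertoli cell markers (12 of 14) were at 40.7 CPM beside 31.4 and 34.7 CPM. In H19Ter replicates 3 and 4, *Cyp17a1* had 8.4 and 2.14 CPM and *Fdx1* 18.9 and 20.6 CPM. The part of these markers in the spread within H19Ter+neo was not tested. In the other 2 genotypes the highest library was at most 1.24 times the lowest for every one of the 10 genes, with *Prdm1* in H19Ter the widest. These are sorted cells in bulk, and fewer cells that express a gene and less RNA per cell cannot be told apart.

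Per kb of exonic length, the scale on which genes can be compared, the order in WT was *Dppa3* (419 ± 54.1 CPM per kb, SD, n = 2), *Dppa4* (250.9 ± 1.35), *Dppa5a* (126 ± 14.8), *Ifitm3* (43.1 ± 3.91), *Prmt5* (35.3 ± 2.16), *Alpl* (18.7 ± 1.76), *Dppa2* (12.3 ± 0.814), *Prdm1* (10.8 ± 1.16), *Prdm14* (6.38 ± 0.73) and *Tfap2c* (3.91 ± 0.13). Neighbours in this order did not overlap between their libraries. *Dppa2* (11.7 to 12.9 CPM per kb) and *Prdm1* (10 to 11.7 CPM per kb) came closest, and their means differed by less than the sum of their SDs. The 3 transcription factors were thus the least abundant, and *Dppa3* was above 99.8% of all genes. The first 3 places were the same in both mutants. *Ifitm3* dropped from the fourth place to the sixth in H19Ter (19.8 CPM per kb) and the fifth in H19Ter+neo (23 CPM per kb), and *Prdm14* (2.30 CPM per kb) came below *Tfap2c* (2.46 CPM per kb) in H19Ter+neo, where their ranges overlapped.

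**Figure D3:**
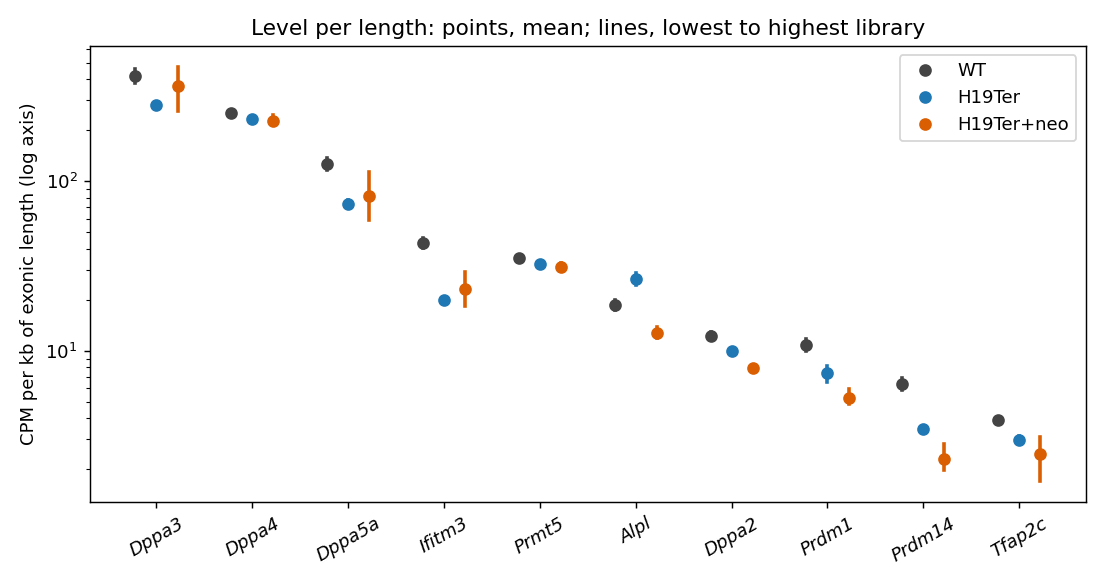
Level of each gene in CPM per kb of exonic length (vertical axis, log scale) by genotype; points are means and lines run from the lowest to the highest library. In WT the levels span from 3.91 for *Tfap2c* to 419 for *Dppa3*, and the order of the first 3 genes is shared by the genotypes.

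RefSeq promoters were matched for 4 of the 10 genes (*Prdm1*, *Ifitm3*, *Prmt5* and *Alpl*), with 5 sequences in all; *Prdm14*, *Tfap2c*, *Dppa2*, *Dppa3*, *Dppa4* and *Dppa5a* are named only. The CpG count in the 300-base window was 26 at the upstream *Alpl* start and 4 at its second start, 20 for *Prdm1*, 16 for *Prmt5* and 5 for *Ifitm3*, beside a median of 7 (quartiles 3 and 20) over 32851 promoters. The palindrome GCCNNNGGC, the motif of TFAP2 factors, reads the same on both strands. It occurred 3 times at the upstream *Alpl* start, once in the *Prmt5* window, and not in the other 3 windows; 16.6% of all promoters hold it. The octamer ATGCAAAT, searched on both strands, was in none of the 5 and in 1.74% of all promoters. These matches are a description of letters.

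Genes that act before, beside or after the 10 were counted from lists. Each count from a list stands beside the share of all genes called in either direction. That share was 25.1% in H19Ter against WT, 54.4% in H19Ter+neo against WT and 27.7% between the mutants. Among BMP, SMAD and WNT genes that induce PGCs in the epiblast, 21 of 22 had a row. In H19Ter 1 was higher and 4 lower than WT, in H19Ter+neo 4 were higher and 4 lower, and between the mutants 1 was higher and 2 lower. *Wnt3*, a ligand needed for PGC induction, had 21.3 and 24.3 CPM in WT, 11.9 and 11 CPM in H19Ter and 11.1, 9.69 and 6.53 CPM in H19Ter+neo, and fell in both (−0.98, adjusted p = 0.00836, and −1.35, adjusted p = 0.00022). *Bmp4*, the founding ligand of the pathway, had 10.2 and 11.1 CPM in WT, 10.5 and 8.85 CPM in H19Ter and 5.59, 4.57 and 4.76 CPM in H19Ter+neo. It fell in H19Ter+neo (−1.09, adjusted p = 0.000114) and did not pass in H19Ter (−0.14, adjusted p = 0.516). The receptor gene *Acvr2b* fell in both (−0.37, adjusted p = 0.026, and −0.59, adjusted p = 0.000483). Among the 4 genes higher in H19Ter+neo were *Bmp2* (1.02, adjusted p = 0.0136), *Bmpr1b* (0.32, adjusted p = 0.0332) and *Bmpr2* (0.32, adjusted p = 0.00115).

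Of the partners of PRDM14 and the other TFAP2 genes 4 of 6 had a row, and 2 were higher in H19Ter, while 3 were higher and 1 lower in H19Ter+neo. *Cbfa2t2*, the corepressor that PRDM14 binds, fell in H19Ter+neo (−0.38, adjusted p = 0.000824) and did not pass in H19Ter (−0.15, adjusted p = 0.157). Its paralogue *Cbfa2t3* was low, at 2.57 and 2.09 CPM in WT, and rose to between 4.28 and 5.98 CPM in the 5 mutant libraries (0.99, adjusted p = 0.00575, and 1.24, adjusted p = 0.00022). *Tfap2a*, the paralogue of *Tfap2c*, also rose in both (0.65, adjusted p = 0.0404, and 0.65, adjusted p = 0.0127), from 2.32 and 2.27 CPM in WT. *Cbfa2t3* and *Tfap2a* thus moved opposite to *Prdm14* and *Tfap2c* in H19Ter+neo.

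The PRMT5 methylosome, its Sm protein substrates and other arginine methyltransferases made a list of 10, all with a row. In H19Ter 1 was lower, in H19Ter+neo 6 were lower and 1 higher, and between the mutants 2 were lower. The 7 of 10 called in H19Ter+neo stand near the 54.4% of all genes called there, and the 1 of 10 in H19Ter is below the 25.1%. The lowest p-values belonged to *Carm1*, another arginine methyltransferase (−0.86 in H19Ter+neo, adjusted p = 5.97e-05), *Snrpd3*, an Sm protein (−0.79, adjusted p = 0.00094), and *Clns1a*, the pICln subunit (−0.35, adjusted p = 0.00317). For none of these 3 did H19Ter pass (adjusted p = 0.109, 0.159 and 0.0577).

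The 3 partners of DPPA3 in maintenance of DNA methylation were lower in H19Ter+neo, as *Dnmt1* (−0.51, adjusted p = 0.000206), *Uhrf1* (−0.33, adjusted p = 0.00339) and the exporter *Xpo1* (−0.19, adjusted p = 0.0472). In H19Ter 1 of them, *Xpo1*, fell (−0.35, adjusted p = 0.0121). Of 14 genes of the two-cell-like state that DPPA2 and DPPA4 activate, 2 had a row, both Usp17l genes. They were barely detected, *Usp17la* with 19 and 27 and *Usp17le* with 30 and 30 read pairs in WT. Both were higher in each mutant, *Usp17le* by 1.1 (adjusted p = 0.0127) and 1.5 (adjusted p = 0.000416), *Usp17la* by 1.0 (adjusted p = 0.0434) and 1.02 (adjusted p = 0.0131).

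Somatic genes that PRDM1 represses in PGCs (8, all with a row) did not move one way. In H19Ter 4 were higher and 1 lower than WT, and in H19Ter+neo 3 were higher and 3 lower. *Lhx1* fell in both, from 34.2 and 43.8 CPM in WT to 14.3 and 9.23 CPM (−1.75, adjusted p = 0.00331) and to between 6.51 and 12.8 CPM (−1.97, adjusted p = 0.000198). *Snai1* fell in H19Ter+neo (−1.07, adjusted p = 0.00132). *Hoxb1* was close to absent, with 3 and 1 read pairs in WT, 34 and 30 in H19Ter and 23, 77 and 53 in H19Ter+neo. It was higher in both mutants (adjusted p = 0.00288 and 0.000649), and no fold is given for so few WT reads.

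The other early germ cell and pluripotency genes (18, all with a row) were lower wherever they passed the test against WT. In H19Ter 7 were lower and none higher, in H19Ter+neo 12 were lower and none higher, and between the mutants 8 were lower and 2 higher. Beside these stand 11.0%, 26.7% and 15.2% of all genes called lower. Their median log2 differences were −0.24, −0.63 and −0.35. *Tfcp2l1*, a factor of naive pluripotency, had 226 and 234 CPM in WT, 230 and 222 CPM in H19Ter and 111, 132 and 127 CPM in H19Ter+neo. It fell in H19Ter+neo (−0.90, adjusted p = 1.71e-05) and not in H19Ter (−0.02, adjusted p = 0.857). *Lin28a*, an RNA-binding regulator that acts upstream of *Prdm1* by blocking let-7, fell in H19Ter+neo (−0.86, adjusted p = 1.92e-05) and missed the threshold in H19Ter (−0.25, adjusted p = 0.0506). *Esrrb* fell in both (−0.46, adjusted p = 0.0319, and −1.31, adjusted p = 2.69e-05).

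**Figure D4:**
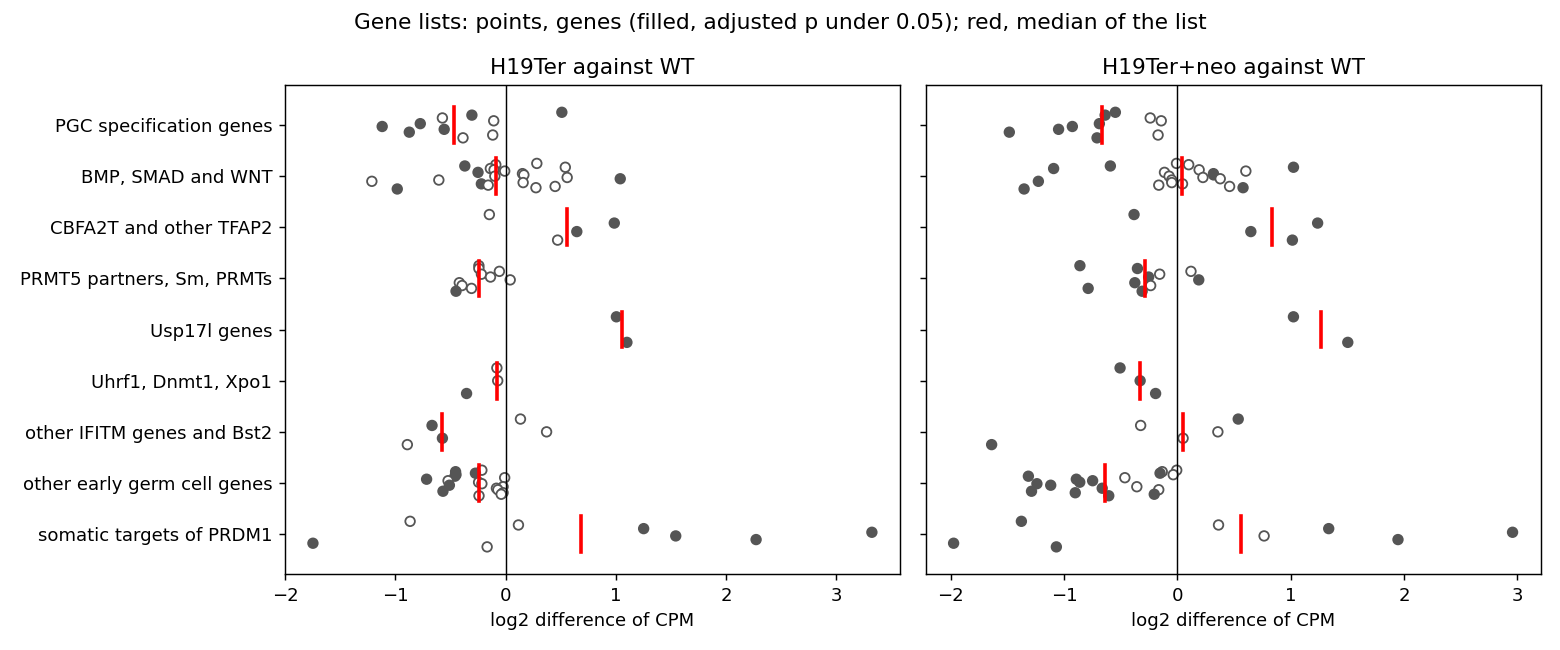
Log2 difference from WT (horizontal axes) in H19Ter (left) and H19Ter+neo (right) for the genes of each list; points are genes, filled where the adjusted p was under 0.05, and red lines are list medians. The PGC genes have medians of −0.47 and −0.66, and of the other early germ cell genes every filled point is left of 0.

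For each of the 10 genes, the gene of most like pattern was sought among 14195 genes (mean log2 level no lower than 1), by the root mean square difference of log2 values centred on their mean over the 7 libraries. *Prdm1* lay closest to *Prc1*, a cytokinesis gene (0.0532), which had 108 and 125 CPM in WT, 88.2 and 77.4 CPM in H19Ter and 68.4, 56.3 and 54.5 CPM in H19Ter+neo. *Prdm14* lay closest to *Ap3b2* (0.0824), *Dppa2* to the Y-linked *Uba1y* (0.0207), *Dppa3* to *Cox7a2* (0.0773), *Dppa4* to *Ube2n* (0.0239), *Dppa5a* to *Prdx2* (0.0972), *Ifitm3* to *Platr27* (0.107), *Prmt5* to *Orc2* (0.0181) and *Alpl* to *AA465934* (0.0836). The nearest to *Tfap2c* was ENSMUSG00000110586 (0.088). The distances for *Dppa4* and *Prmt5* are small partly because these genes themselves varied little, by 0.0791 and 0.0878 around their own means.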

How the data were processed

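Trim Galore 0.6.0 served for trimming, and the authors counted uniquely mapping read pairs per gene with STAR 2.7.8 on mm10, per the paper's methods; deepTools and edgeR appear in the submitters' notes. Annotation release and strand setting were not given in the sources used here. Deposited values are log2 CPM with a prior count averaging 2 reads. Undoing log and prior gave whole read pairs for 100% of values (tolerance 1e-06). CPM printed here are those read pairs over the scaled library size; CPM per kb use exonic lengths of GENCODE vM21 (GRCm38), found for 20615 of 20643 IDs.

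The log2 values were tested with limma (3.58.1, R 4.3.3), 7 libraries in 1 fit, genotype as only factor, with a mean-variance trend, two-sided, Benjamini-Hochberg adjusted over all genes; the paper states no test across genes. The fit was also run on simulated counts in which all genes had the same relative spread and few were changed. These libraries differ from that, so the run gives no error rate for the calls above. Alignments used blastn 2.17.0, and figures matplotlib 3.10.9.

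Members and lists were chosen with earlier results of these data known. Named were every member, up to 3 genes of each other list with the smallest p, 1 nearest gene per member, and the 2 markers per cell type with the highest mean log2 level. *Ifitm1*, *Ddx4*, *Plvap*, *Col1a1*, *Pdgfrb*, *Cyp17a1*, *Dnmt3l*, *Pou5f1*, *Bmp2*, *Bmpr1b*, *Bmpr2* and copies that share sequence were named after their values were seen. Alternatives were prior counts of 0.5 and 5, a filter at a mean log2 value of 0, 2 other scalings, only the 2 groups compared, voom, no trend, removal of a GC and length trend, thinning, and each library left out.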

Additional observations from a re-analysis of the deposited data

Results flagged for a closer look

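The difference between the mutants passed the test for 4 of the 10 genes, so that their effects against WT differed between H19Ter and H19Ter+neo. On the log2 scale, H19Ter+neo minus H19Ter was −0.49 for *Prdm1*, −0.61 for *Prdm14*, −0.33 for *Dppa2* and −1.06 for *Alpl*. For *Prdm1*, *Prdm14* and *Dppa2* both mutants lay below WT, and for *Alpl* they lay on opposite sides of it. No library of 1 mutant overlapped the other for any of the 4. These 4 were picked because they passed the test, so the separation adds no support. *Tfap2c*, *Dppa3*, *Dppa4* and *Prmt5* were also separate between H19Ter and WT, where none of them passed. Groups of 2 and 3 libraries are too small for the test of single outlying libraries.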

How the results depend on the processing

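Over 17 alternatives per comparison (7 of them leaving out a library), 462 of 510 values of the 10 genes kept direction and side of the threshold, 34 lost a call, 12 gained one and 2 reversed. The reversed values were not called in any case, *Dppa5a* between the mutants without H19Ter+neo replicate 5 (−0.18; −0.18 to 0.29 over single libraries left out) and *Prmt5* between the mutants with the GC and length trend removed (0.016). The count of genes called in H19Ter against WT, 6, was 2 with no mean-variance trend and between 2 and 8 with single libraries left out. Between the mutants it was 2 in place of 4 with no trend, and 1 to 5 with single libraries left out. In H19Ter+neo against WT it was 5 to 9 in place of 7 throughout. Over all genes, 5187 calls in H19Ter against WT became 3092 with voom, 2858 with no trend, 1408 without WT replicate 2, 2260 without H19Ter replicate 3 and 1892 without replicate 4, and 5717 calls between the mutants became 2326 and 2994 without the same H19Ter libraries. A group left with 1 library is assumed to vary like the others. The cause of the other changes was not tested. With no trend 8 of the 17 calls were lost, all with direction kept. No paired analysis was possible because the titles number the libraries 1 to 7 and no number is shared between groups. Intervals and p-values rest on 2 or 3 libraries a group.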
